A study of Mus musculus with 60 samples.

Results

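The heme synthesis genes were taken as 9 genes, chosen by name: the 2 first-step synthases Alas2 and Alas1, the enzymes Alad, Uros, Urod, Cpox, Ppox and Fech, and the mitochondrial carrier Tmem14c. Every probe set that the annotation of the arrays assigns to one of them was used, 20 of 45037 probe sets in all, and 19 of the 20 passed the filter on low signals. RNA came from spleen leukocytes that were used straight after collection, with no culture and no treatment. The mice were females of 3 inbred strains at 2 or 4 weeks of age, with 5 mice in each of 6 groups. NOD mice become diabetic spontaneously through autoimmunity. Both other strains, NON and C57BL/6 (called C57), served as controls that do not, and NON shares more of its ancestry with NOD. The labels name no transgene or targeted allele in any group. The leukocytes were not sorted, so the RNA of any erythroid cell left in the preparation was measured with that of the white cells. Each mouse had its RNA on a 430A and a 430B array, and the values below are signals, an intensity on a linear scale whose trimmed mean is 250 on every array. A gene with several probe sets is led here by the one with the highest mean signal, and levels of different probe sets cannot be compared with each other.

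Heme is the iron-holding ring of hemoglobin and of many respiratory and detoxifying enzymes. Its synthesis starts in mitochondria, where an ALAS enzyme joins glycine to succinyl-CoA, continues in the cytosol, and ends in mitochondria, where ferrochelatase inserts the iron. Every nucleated cell makes some heme with the housekeeping synthase Alas1, whereas red cell precursors switch on Alas2 and raise the later enzymes for hemoglobin. The mouse spleen is a site of red cell production, most of all early in life.

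Promoter sequences are shown for Alas2 and Uros, which moved with erythroid transcripts, and for Alas1, whose estimate did not. They are also shown for Cpox, which has several GATA words, and for Tmem14c, which has the large NOD difference. Alad, Urod and Fech moved with erythroid transcripts too and are not shown. The RefSeq windows (GRCm38.p6) were found for 8 of the 9 genes, all but Fech, 11 windows in all. Each line runs 5′ to 3′ from base -210 to base 20 around the RefSeq start, which is base 1. Capitals mark 2 kinds of motif read on both strands, the GATA words, which are the word AGATAA, the word AGATAG, the word TGATAA and the word TGATAG, and the word CACCC. For Alas1 and Uros, which have 2 RefSeq starts, the downstream start is shown.
Alas2 promoter, chrX:150547207-150547436, plus strand: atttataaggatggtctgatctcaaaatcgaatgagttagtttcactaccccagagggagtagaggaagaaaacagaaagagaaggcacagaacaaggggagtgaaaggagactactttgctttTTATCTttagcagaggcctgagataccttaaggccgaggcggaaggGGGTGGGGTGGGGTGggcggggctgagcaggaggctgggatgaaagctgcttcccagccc
Alas1 promoter, chr9:106247711-106247940, minus strand: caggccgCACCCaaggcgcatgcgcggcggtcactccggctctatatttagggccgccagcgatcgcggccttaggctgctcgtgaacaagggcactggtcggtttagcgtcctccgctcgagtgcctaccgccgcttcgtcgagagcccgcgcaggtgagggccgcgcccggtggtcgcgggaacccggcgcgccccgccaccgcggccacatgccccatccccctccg
Uros promoter, chr7:133702481-133702710, minus strand: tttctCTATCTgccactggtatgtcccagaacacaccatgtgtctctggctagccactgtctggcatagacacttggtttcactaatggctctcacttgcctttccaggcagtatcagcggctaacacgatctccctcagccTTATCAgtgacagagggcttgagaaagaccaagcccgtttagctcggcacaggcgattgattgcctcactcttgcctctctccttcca
Cpox promoter, chr16:58669998-58670227, plus strand: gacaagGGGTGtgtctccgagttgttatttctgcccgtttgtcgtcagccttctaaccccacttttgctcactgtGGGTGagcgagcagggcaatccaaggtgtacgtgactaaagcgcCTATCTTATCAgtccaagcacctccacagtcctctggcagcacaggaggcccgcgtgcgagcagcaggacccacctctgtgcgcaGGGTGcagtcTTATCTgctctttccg
Tmem14c promoter, chr13:41016040-41016269, plus strand: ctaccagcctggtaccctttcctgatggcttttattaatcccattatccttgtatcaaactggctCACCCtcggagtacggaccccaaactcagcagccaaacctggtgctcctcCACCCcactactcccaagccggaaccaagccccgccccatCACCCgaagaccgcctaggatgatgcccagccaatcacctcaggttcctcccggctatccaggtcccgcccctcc

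The GATA word of Alas2 begins at base -86. Its 3 CACCC matches begin at -40, -35 and -30 and lie end to end. Both motifs of Alas2 read on the strand opposite to the printed one. Uros holds GATA words at -205 and -68, and Cpox at -91, -86 and 5, the first pair of which share a base. No GATA word was found in the 300-base windows of Alas1, Alad, Urod, Ppox or Tmem14c, nor at the upstream start of Uros. Of the genes that moved with erythroid transcripts, those shown are thus the ones with a GATA word. The display therefore does not compare such genes with the others. Tmem14c holds CACCC at -145, -95 and -55. Of 32851 RefSeq windows of that length, 29.8% hold a GATA word and 57.5% hold CACCC, so a match is a description of the letters and not a site.

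The preparation carried the transcripts of the named tissue. The summed signal of 6 B cell genes was 11380 to 34890 over the 30 mice, and that of 7 T cell genes 958.6 to 9327. Erythroid transcripts were present too. Of 22 listed erythroid genes 16 were measured, and their summed signal ran from 2671 to 32000. The median signal of the arrays was 84.8 to 126 on 430A and 126 to 169 on 430B, and the Gapdh 3′/5′ ratio, which rises with RNA degradation, was 0.744 to 4. The ratio was not even over the strains. Its 2-week median was 1.26 in C57 (1.02 to 2.17), 0.883 in NON (0.746 to 4) and 0.794 in NOD (0.744 to 1.06). At 4 weeks the medians were 1.26 in C57, 1.28 in NON and 0.914 in NOD. One library stood apart, NOD replicate 3 at 4 weeks, which correlated with its group mates at a median r of 0.78, where every remaining mouse lay between 0.858 and 0.902. In bulk RNA, fewer cells of a type and less RNA per cell cannot be told apart.

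Strains were compared at each age over 15 mice with limma's moderated F-test on log2(signal + 10), adjusted by Benjamini-Hochberg over all 38293 kept probe sets. By their leading probe sets, 2 of the 9 genes passed at 2 weeks and 2 at 4 weeks, the carrier Tmem14c and the second-step enzyme Alad at both ages. Of all kept probe sets, 1.66% passed at 2 weeks and 1.51% at 4 weeks. At the study's stricter threshold of 0.005, which 0.528% and 0.473% of probe sets passed, both genes were called at 2 weeks and Tmem14c alone at 4 weeks. The labels do not say that the mice came from separate litters, so the p-values measure the spread between these mice.

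**Figure D1:**
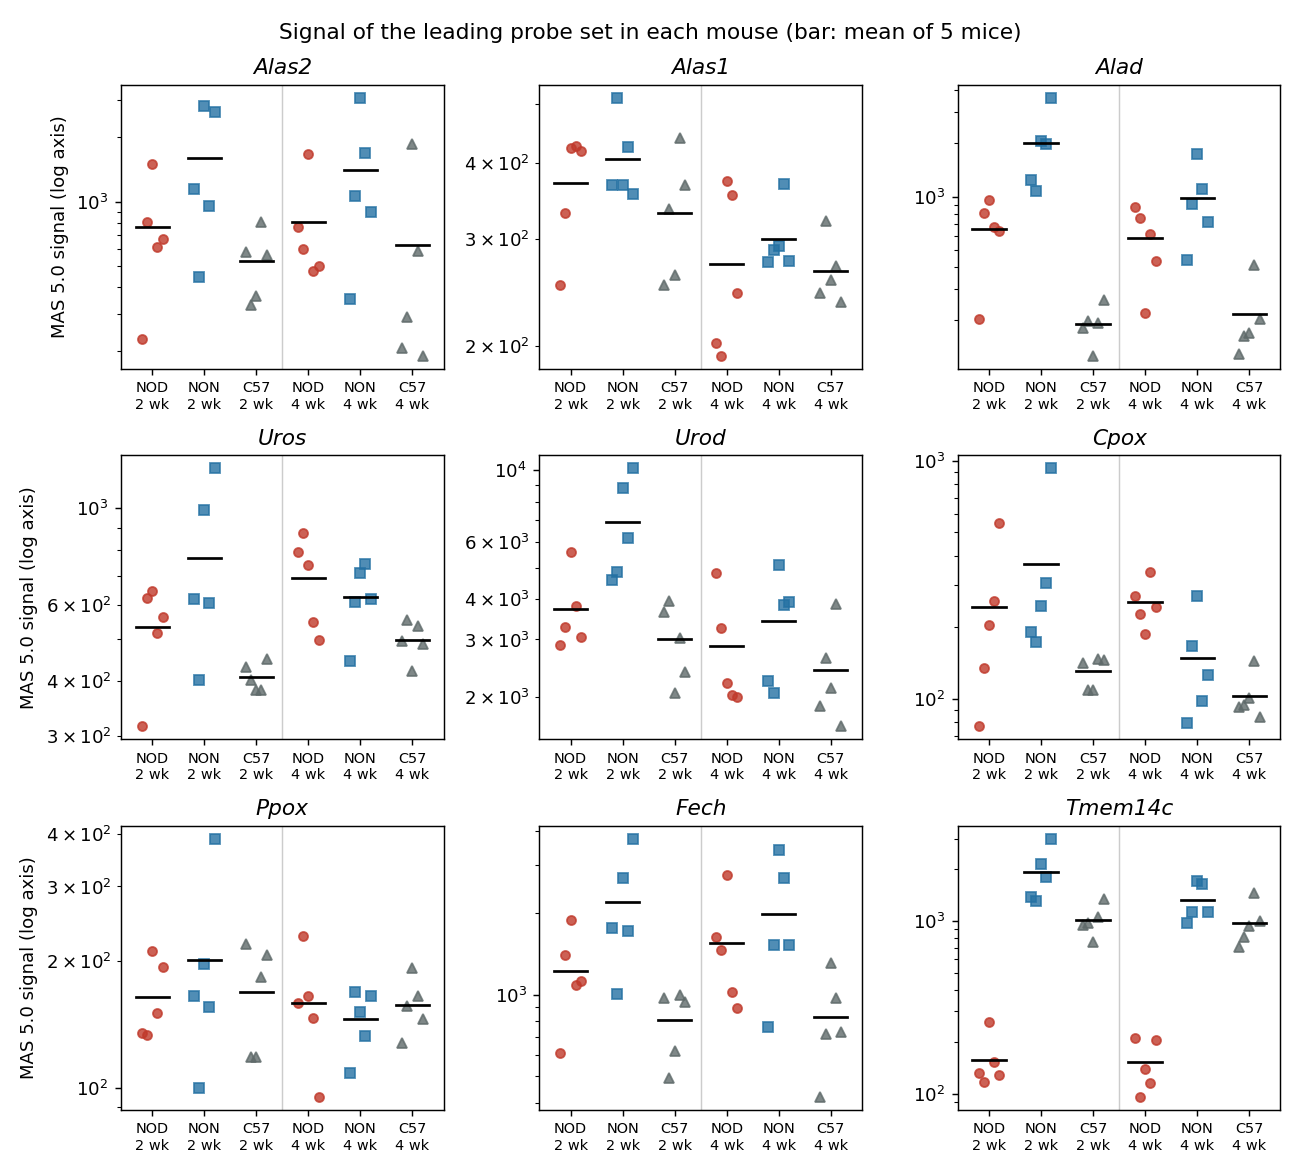
Signal of the leading probe set of each gene (log axis) in each of the 30 mice, by strain and age; red circles are NOD, blue squares NON and grey triangles C57, and the bar is the mean of 5 mice. Tmem14c in NOD lies between 95.8 and 259, below every control mouse, and Alad lies lowest in C57 and highest in NON.

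Tmem14c carries the ring precursor protoporphyrinogen across the inner mitochondrial membrane, and 1 probe set reads it. No second probe set could be set beside it, and the PCR results shown in the study do not include Tmem14c. Whether its probes match the sequence of each strain equally was not tested. At 2 weeks its signal was 131, 116, 259, 152 and 129 in the NOD mice. It was 1379, 1302, 2130, 1790 and 2990 in the NON mice and 942, 970, 757, 1048 and 1334 in the C57 mice. The highest NOD mouse therefore lay far below the lowest control mouse. At 4 weeks the NOD signals were 210, 95.8, 139, 115 and 204. The NON signals were 979 to 1704 and the C57 signals 709 to 1448, again with no overlap. All 5 NOD mice lay below all 10 control mice at both ages, which held for 0.274% of probe sets at 2 weeks and 0.436% at 4 weeks.

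The mean NOD signal of Tmem14c was 12.2-fold lower than that of NON and 6.42-fold lower than that of C57 at 2 weeks. On the log2 scale the difference of NOD from the mean of both controls was -3.08 (SE 0.23, limma adjusted p = 3.15e-06) at 2 weeks and -2.84 (SE 0.229, adjusted p = 6.59e-06) at 4 weeks. Without single mice the latter ran from -2.96 to -2.70. Of all probe sets, 0.287% passed this contrast as lower in NOD at 2 weeks and 0.52% at 4 weeks, and Tmem14c was the only one of the 9 genes to pass. By the size of the NOD difference it ranked 9 of 38293 from the lowest at 2 weeks and 15 at 4 weeks. The study picked out this probe set from the same mice, so its direction is not independent evidence. The 2 control strains stood closer to each other, with NON above C57 by a log2 of 0.87 (SE 0.27, adjusted p = 0.131) at the younger age and 0.43 at the older (adjusted p = 0.66).

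Alad condenses 2 molecules of aminolevulinic acid into the pyrrole porphobilinogen. Its signal at 2 weeks was 180, 198, 126, 193 and 260 in C57 mice. It was 203, 811, 953, 674 and 643 in NOD mice and 1250, 1076, 2056, 1991 and 3621 in NON mice. NON and C57 did not overlap, and NOD lay between them with 1 mouse among the C57 values. The NON mean was 10.5-fold that of C57 (log2 3.22, SE 0.40, adjusted p = 0.000459). Of all probe sets, 0.569% passed as higher in NON than in C57 at this age. The NOD mean was 3.43-fold that of C57, which did not pass as a pair (adjusted p = 0.0867), and the F-test over the 3 strains gave an adjusted p of 0.00104.

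At 4 weeks Alad signals were 129, 163, 170, 411 and 204 in C57, 878, 755, 220, 614 and 432 in NOD, and 436, 909, 1738, 1106 and 720 in NON. The lowest NON mouse still exceeded the highest C57 mouse. The NON mean was 4.56-fold that of C57 (log2 2.11, SE 0.42, adjusted p = 0.0286, where 0.321% of probe sets passed as higher). The F-test passed narrowly (adjusted p = 0.0433) and was lost in 12 of 15 fits that each left out 1 mouse, over which the adjusted p ran from 0.0171, without the library that stood apart, to 0.108. It was kept without that library, NON replicate 1 or C57 replicate 4, and lost without any other mouse. The NON minus C57 pair was lost in 8 of them (0.012 to 0.0817). A second Alad probe set on the other array read the same order at 2 weeks, with mean signals of 90.3 for C57, 331 for NOD and 994 for NON (F-test adjusted p = 0.00578). At 4 weeks it gave 132, 155 and 730 (adjusted p = 0.0439), where C57 mice at 106.5 to 175 overlapped both NOD mice at 108 to 245 and NON mice at 125.5 to 1109.

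Alas2, the erythroid synthase of the first step, had the widest spread within groups of the 9 leading probe sets. At 2 weeks its signal was 230, 800, 1499, 616 and 668 in NOD, 1148, 446, 2786, 959 and 2629 in NON, and 584, 329, 362, 801 and 566 in C57. The strains overlapped, and each strain held a mouse at 446 or lower. The 4-week signals were 766, 602, 1677, 476 and 501 for NOD, 351, 1063, 3057, 1694 and 898 for NON, and 208, 291, 1856, 589 and 191 for C57. Over the 30 mice the highest value was 16-fold the lowest. The SD of its log2 signal within groups was 1, above that of 89.8% of kept probe sets. NON exceeded C57 by a log2 of 1.35 at 2 weeks (95% interval 0.25 to 2.45, adjusted p = 0.244) and 1.39 at 4 weeks (0.03 to 2.75, adjusted p = 0.495). Neither age passed the F-test (adjusted p = 0.355 and 0.509).

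Alas1, the housekeeping synthase, varied far less. Its 30 signals lay between 192 and 512, a 2.66-fold range, and its within-group SD of 0.29 (log2) was above that of only 11.7% of probe sets. Group means at 2 weeks were 370 ± 77.3 for NOD, 406 ± 65.3 for NON and 332 ± 78.3 for C57 (SD, n = 5 each). They were 273 ± 84.9, 300 ± 39.5 and 266 ± 33.7 at 4 weeks. The largest strain difference, NON minus C57 at 2 weeks, was 0.30 on the log2 scale (95% interval -0.15 to 0.75). A second, dim probe set (4.6 to 93.2) gave no strain difference that passed.

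Uros closes the porphyrin ring and Urod trims its side chains, both in the cytosol. Uros signals at 2 weeks were 315 to 644 in NOD, 404 to 1236 in NON and 382 to 450 in C57, and the NON mean was 1.88-fold that of C57 (log2 0.79, 95% interval 0.20 to 1.38, adjusted p = 0.203). The 4-week means were 691, 625 and 499 and NOD was highest. The second Uros probe set showed no such order, with 2-week means of 298, 284 and 303. Urod at 2 weeks gave 2894, 3270, 5596, 3814 and 3055 in NOD and 4582, 4856, 8822, 6169 and 10134 in NON. The C57 signals were 3636, 3940, 2051, 3022 and 2384. Every NON mouse exceeded every C57 mouse.

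The mean Urod signal of NON was 2.3-fold that of C57 at 2 weeks, and this pair passed narrowly (log2 1.17, SE 0.28, adjusted p = 0.0473), while the F-test over the strains did not (adjusted p = 0.0807). The pair was lost in 11 of 15 fits that each left out 1 mouse (adjusted p from 0.032 to 0.13 over the 15), and kept without NOD replicate 3, NON replicate 1 or 2, or C57 replicate 2. The other Urod probe set had 2-week means of 350 for NOD, 581 for NON and 267 for C57, and its NON minus C57 difference of 0.99 did not pass (adjusted p = 0.109). By 4 weeks the leading means were 2856, 3427 and 2422 and the strains overlapped.

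Cpox and Ppox carry out the oxidations that precede iron insertion. Cpox signals at 2 weeks were 77 to 547 in NOD, 174 to 929 in NON and 109 to 148 in C57. All NON mice exceeded all C57 mice, but the spread in NON was wide (log2 1.15, SE 0.47, adjusted p = 0.285), and without NON replicate 5 the difference was 0.74 (adjusted p = 0.522). At 4 weeks NOD was highest instead, with 271, 227, 188, 342 and 244, against 79.4 to 271 in NON and 84.3 to 145 in C57. That NOD excess over the mean of the controls (log2 1.03, SE 0.25) came closest to passing of the remaining members at this age (adjusted p = 0.0696 for the contrast and 0.088 for the F-test). Of the other Cpox probe sets, one had 4-week means of 157 for NOD, 141 for NON and 119 for C57, and a dimmer one had 169, 97.7 and 150, neither with a strain difference that passed. Ppox had the highest F-test p of the 9 genes at both ages, with group means of 145 to 201. Its NON minus C57 difference was 0.15 at 2 weeks (95% interval -0.50 to 0.79) and -0.11 at 4 weeks (-0.58 to 0.35).

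Fech, ferrochelatase, inserts the iron. At 2 weeks its signals were 610, 1405, 1882, 1085 and 1120 in NOD, 1764, 1005, 2693, 1723 and 3755 in NON, and 976, 492, 622, 998 and 941 in C57. The lowest NON mouse (1005) lay just above the highest C57 mouse (998). The NON mean was 2.72-fold that of C57 (log2 1.35, SE 0.36, adjusted p = 0.0837), a difference that passed only without NON replicate 2 (0.0264) among the mice left out in turn. A second Fech probe set passed the same pair (log2 1.73, SE 0.37, adjusted p = 0.028), and another had a difference of 0.83 (adjusted p = 0.355). The dimmest one (4.5 to 71.9) did not pass the filter. At the older age the ranges overlapped, 895 to 2759 for NOD, 759 to 3424 for NON and 421 to 1312 for C57.

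**Figure D2:**
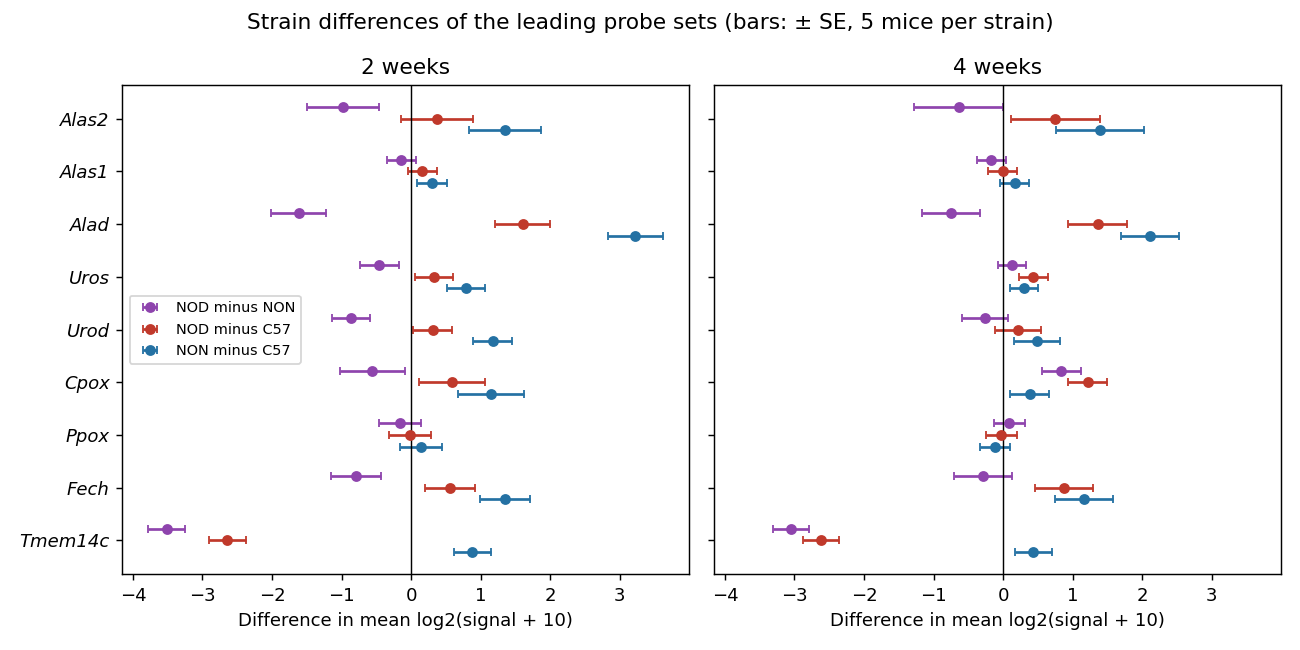
Pairwise differences between strains in mean log2(signal + 10) of the leading probe sets at 2 weeks (left) and 4 weeks (right); points are estimates and bars 1 SE from the limma fit of 15 mice. Tmem14c is the gene with both NOD contrasts far below 0, and at 2 weeks the NON minus C57 points lie above 0 for all 9 genes.

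One order recurred at 2 weeks. In 7 of the 9 genes (all but Ppox and Tmem14c) the mean log2 signal was highest in NON, intermediate in NOD and lowest in C57, an order that 19% of kept probe sets showed. All 5 NON mice exceeded all 5 C57 mice for 4 genes (Alad, Urod, Cpox and Fech), against 1.97% of probe sets. The NON minus C57 estimate was above 0 for 9 of 9 genes, against 52.7%, and 2 of them (Alad and Urod) passed. The median NON minus C57 difference was 1.15 over the 9 genes and 0.03 over all probe sets. At 4 weeks the order held for 4 genes (Alas2, Alad, Urod and Fech), against 15.6% of probe sets, the ranges were apart for Alad alone, against 1.52%, and the median was 0.43. All 9 values come from the same mice, so these counts are not of independent genes.

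By summed signal at 2 weeks, erythroid marker levels followed the same order and T cell levels the reverse. None of the 16 measured erythroid genes passed the strain F-test at either age, beside 1.66% and 1.51% of all probe sets. As higher in NON than in C57 at 2 weeks, 2 of the 16 passed, beside 0.569%. Cell cycle levels were highest in NON, with NOD and C57 close to each other. The summed erythroid signal of the 2-week mice was 9494 to 32000 for NON, 4501 to 20300 for NOD and 4650 to 8389 for C57. The cell cycle genes summed to 18210 to 25360 in NON, 10010 to 16790 in NOD and 8460 to 15540 in C57, with a NOD median (13070) below that of C57 (13810). On the log2 scale the median difference of these 7 genes was 0.74 for NON minus C57, with 7 above 0. It was -0.58 for NOD minus NON and 0.02 for NOD minus C57, with 4 of the latter above 0. The summed megakaryocyte and platelet signal had medians in the heme gene order (3052 in NON, 1997 in NOD and 1616 in C57), with overlapping ranges. The T cell sums were lowest in NON (958.6 to 2440), then NOD (2949 to 5995) and C57 (3659 to 7678). The part of cell cycle, megakaryocyte and T cell levels in the heme gene order was not tested. For erythroid levels, each mouse was given an erythroid score, the mean log2(signal + 10) of the 16 measured erythroid genes, none of them a member. Its mean at 2 weeks was 9.31 ± 0.741 for NON, 8.63 ± 0.75 for NOD and 8.05 ± 0.352 for C57 (SD, n = 5). At 4 weeks it was 8.81, 8.56 and 7.72.

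With the erythroid score as a covariate, Tmem14c kept its NOD difference at both ages (log2 -3.05, SE 0.172, and -2.93, SE 0.214). Alad still differed between the strains at 2 weeks (F-test adjusted p = 0.00645), with NON above C57 by a log2 of 2.04 in place of 3.22. The second Alad probe set did not pass there once the score was held (adjusted p = 0.164, NON above C57 by 2.57). By 4 weeks Alad did not pass (adjusted p = 0.27). The NON minus C57 difference at 2 weeks was -0.30 for Alas2, 0.004 for Uros, 0.56 for Urod, 0.16 for Cpox and 0.22 for Fech once the score was held, and none of these passed. At that age the scores of NON mice (8.40 to 10.29) and C57 mice (7.65 to 8.39) did not overlap. The 2-week NON minus C57 differences with the score held, that of Alad included, therefore rest on the fitted line. Strain and score cannot be told apart there. With the covariate, 0.802% and 0.841% of probe sets passed the F-test at 2 and 4 weeks.

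Among mice of one group, the heme genes rose and fell with the erythroid score to different degrees. The slope of log2(signal + 10) on the score, with the 6 groups held fixed, passed for 5 of the 9 genes and was above 0 in each, against 0.655% of all probe sets with a slope above 0. A slope of 1 means that the gene changed as much as the mean erythroid gene. The slopes were 1.07 for Alas2 (SE 0.22, adjusted p = 0.0141), 0.92 for Alad (SE 0.12), 0.75 for Fech (SE 0.14), 0.61 for Urod (SE 0.10) and 0.46 for Uros (SE 0.08). Cpox had 0.58 (SE 0.17, adjusted p = 0.123), Tmem14c 0.42 (SE 0.11, 0.0639) and Ppox 0.40 (SE 0.11, 0.0867), and none of the 3 passed. Left out in turn, NOD replicate 5 at 2 weeks brought Cpox past the threshold (0.0273), and NOD replicate 1 at 2 weeks or NOD replicates 2 and 5 or C57 replicate 5 at 4 weeks brought Tmem14c past it (lowest 0.0124). Alas1 had a slope of -0.01 (SE 0.10). Within a strain (10 mice, group means removed), the Pearson r of Alas2 with the score was 0.972 in NON, 0.545 in NOD and 0.451 in C57. In the same order it was 0.993, 0.548 and 0.525 for Fech and 0.946, 0.883 and 0.666 for Alad. Urod had 0.852, 0.873 and 0.664, and Uros 0.922, 0.822 and 0.501. Whether the slopes differed between strains was not tested.

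The score and the genes were read on the same arrays and share their noise and scaling. Other probe sets gave slopes of 0.86 and 0.80 for Fech and 0.73 for Urod, all passing. Those of the second Alad and second Uros probe sets, 0.58 and 0.29, did not (adjusted p = 0.301 and 0.57). The call for Alas2 was lost without NON replicate 2 at 2 weeks (adjusted p = 0.0552) or without NON replicate 1 at 4 weeks (0.0608). These 2 mice had the highest Gapdh 3′/5′ ratios of the 30 (4 and 3.15, against a median of 1.01) and the lowest erythroid scores of their groups (8.40 and 7.72), so the Alas2 call rests on each of them. NOD replicate 3 and C57 replicate 3 at 4 weeks lay off the Alas2 line. Without both, a choice made after their values were seen, the slope of Alas2 was 1.22 (SE 0.11) and that of Fech 0.85 (SE 0.09), and the same 5 genes passed, beside 0.723% of probe sets.

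**Figure D3:**
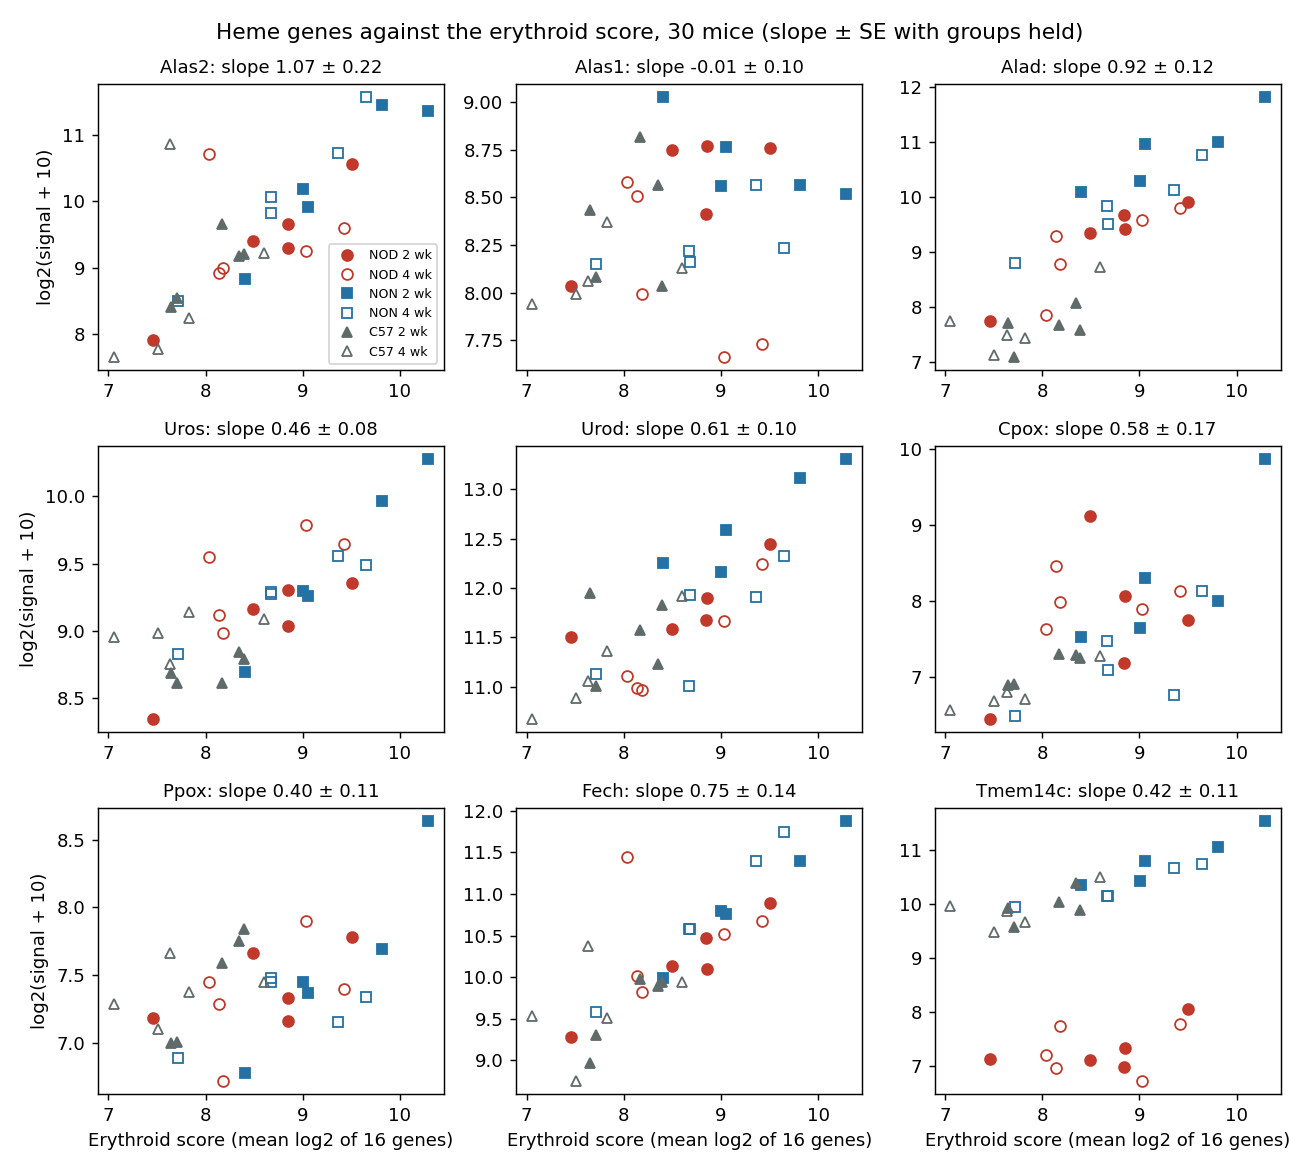
Log2(signal + 10) of each heme gene against the erythroid score in the 30 mice; filled symbols are 2 weeks, open symbols 4 weeks, and each panel gives the slope ± SE with groups held fixed. Alas2, Alad and Fech rise with the score, Alas1 is flat, and the NOD mice (red) lie apart from both controls in the Tmem14c panel.

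Pearson correlations between the genes over the 30 mice, after group means were removed, describe the same split. Alas2 and Fech had the closest pair (r = 0.927). The r of Alas1 with the other 8 genes lay between -0.0964 and 0.198. Tmem14c correlated with the genes other than Alas1 at 0.382 to 0.623 within groups, although its NOD level was far lower. These points share arrays and their scaling, and no test was made of them.

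No heme gene changed with age past the threshold. The mean change over the 3 strains from 2 to 4 weeks was fitted over all 30 mice, and 0 of the 9 genes passed with limma, against 3.19% of all probe sets; 2 of the 9 had an unadjusted p under 0.05, against 13.6%. The 2 were Urod, with a change of -0.60 (SE 0.18, 95% interval -0.96 to -0.23, adjusted p = 0.0632), and Alas1, with -0.39 (SE 0.11, interval -0.62 to -0.15, adjusted p = 0.0656). Both lay close to the threshold. One of them passed under 4 other settings, and at least one in 9 of 30 fits that each left out 1 mouse. Without the library that stood apart, NOD replicate 3 at 4 weeks, Alas1 passed (adjusted p = 0.0296). It also passed without NOD replicate 1 or C57 replicate 3 at 2 weeks or NOD replicate 4 at 4 weeks. Urod passed without NON replicate 1 or 2 or C57 replicate 3 at 2 weeks, or without NOD replicate 1, NON replicate 3 or C57 replicate 4 at 4 weeks, with the lowest adjusted p at 0.026. The remaining mean changes were -0.37 for Alad, -0.37 for Cpox, -0.21 for Tmem14c, -0.15 for Ppox, -0.11 for Alas2, 0.05 for Fech and 0.15 for Uros.

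Within a strain, 0 of 9 genes passed in NOD (0.146% of probe sets did), in NON (1.46%) or in C57 (0.46%). The estimates were below 0 for all 9 genes in NON, with a median of -0.42, and 49.8% of all probe sets had estimates below 0 there. In NON, Urod went from a mean of 6913 to 3427 (log2 -1.02, SE 0.31, adjusted p = 0.0935), Alad from 1999 to 982 (-1.03, SE 0.42) and Cpox from 369 to 148 (-1.08, SE 0.40). The Cpox estimate was -0.68 (adjusted p = 0.536) without NON replicate 5 at 2 weeks, whose signal was 929. In NOD the median was -0.04, and in C57 -0.07. The summed erythroid signal of NON had a median of 15530 at 2 weeks and 11870 at 4 weeks, and the cell cycle sum 23970 and 10300; their part in these estimates was not tested. Whether the age change differed between strains was tested as an interaction, which 0 of the 9 genes passed and 1 of all 38293 probe sets did (0.00261%). The lowest interaction p was that of Cpox (unadjusted 0.0632, adjusted 0.739), and 6.9% of all probe sets had an unadjusted p under 0.05.

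**Figure D4:**
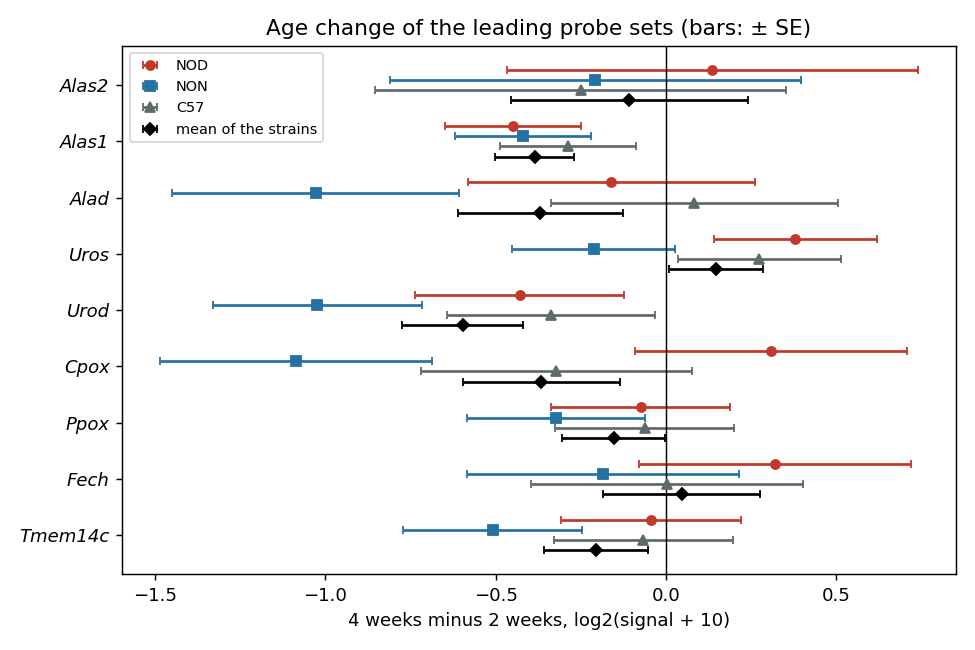
Change from 2 to 4 weeks in mean log2(signal + 10) of each leading probe set, by strain and as the mean of the strains; bars are 1 SE from the fit of 30 mice. The NON estimates (blue squares) lie below 0 for all 9 genes, and the mean of the strains (black diamonds) is farthest below 0 for Urod at -0.60.

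Around the core enzymes, 18 of 21 listed genes of iron delivery to mitochondria, heme transport, heme breakdown and iron-sulfur assembly were measured. At 2 weeks 2 of the 18 differed between the strains, beside 1.66% of all probe sets, and at 4 weeks none did, beside 1.51%. Glrx5, needed for iron-sulfur cluster assembly, had 2-week means of 10490 ± 3187 for NON, 5396 ± 713 for NOD and 4255 ± 1073 for C57 (SD, n = 5; F-test adjusted p = 0.0159). Abcb6, a porphyrin transporter, had 290 ± 134, 135 ± 61.9 and 84.1 ± 20.2 (adjusted p = 0.0346). Both were higher in NON than in C57, and in both NOD lay between. None of the 18 changed with age over the strains. Hmox1, heme oxygenase, had the largest estimate (0.85, SE 0.33, adjusted p = 0.202), with a NOD mean of 620 at 2 weeks and 1557 at 4 weeks. The next was Glrx5 (-0.41), followed by Blvrb, a biliverdin reductase (-0.37), and Abcb6 (-0.29).

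Of 12 listed genes of iron uptake and storage, 11 were measured. None differed between the strains at either age, and 1 rose with age, beside 1.31% of all probe sets. Hfe, which regulates hepcidin, went from 373 to 665 in NOD, from 288 to 385 in NON and from 268 to 396 in C57 (mean log2 change 0.55, SE 0.15, adjusted p = 0.0313). Slc40a1, the iron exporter ferroportin, had a mean change of 0.77 (SE 0.22) that did not pass (adjusted p = 0.0577). Tfrc, the transferrin receptor, had -0.42 and Slc11a2, an iron transporter, -0.26, with no call. Of 8 macrophage genes, 2 (Cd68 and Cd163) rose over the same ages and 6 did not pass. The estimate was above 0 for 7 of the 8, with a median of 0.68, and Lyz2 was the exception at -0.24. The part of the macrophage genes in the Hfe change was not tested.

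The genes whose pattern over the 30 mice was most like that of Alas2 were Trim10 (r = 0.936), Fech (0.929), Tmcc2 (0.909), Cdr2 (0.902) and Slc4a1 (0.898), of which Trim10 and Slc4a1 are on the erythroid list. The 5 most like Tmem14c were D17H6S56E-5 (0.946), Ndufs5 (0.936), Phgdh (0.916), C130026I21Rik (0.915) and Pdk1 (0.904). The study listed all 5 genes, and Tmem14c, as lower in NOD at both ages in the same mice. It named the C130026I21Rik probe set Sp110 and printed another probe set for D17H6S56E-5. These correlations include the differences between groups and are given as a description.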

How the data were processed

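The authors hybridised RNA of each mouse to Affymetrix 430A and 430B arrays and deposited Microarray Suite 5.0 signals, an intensity on a linear scale. The methods name default settings and global scaling to a target of 100, whereas the 2% trimmed mean of each deposited array is 250; the values were used as deposited, and detection calls were not used here. Groups came from the strain and age in the labels. The genes, lists and alternatives were chosen with earlier results of these data known. Probe sets were named by GEO's platform annotation, which gave 1 symbol to 34945 of 45037 probe sets, several to 932 and none to 9160. Probe sets with a signal of at least 50 in at least 5 of 30 mice were kept (38293), transformed as log2(signal + 10), which understates differences of dim probe sets, and fitted with limma 3.58.1 in R 4.3.3, with Benjamini-Hochberg adjustment and a threshold of 0.05. Ratios are of mean signals. All 9 genes are named with every probe set. For the heme pathway and iron lists, the 4 largest mean age changes and any gene passing the strain test are named. The 5 genes most like Alas2 and Tmem14c were ranked by Pearson r. The slope on the erythroid score was added after the data were seen. The fits were checked on simulated data. Some genes of the lists were not analysed here. Other pseudocounts, filters, normalizations, a replicate block, RNA quality and erythroid covariates, other fits and leaving out each mouse were tried. The number of arrays limits the precision.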

Additional observations from a re-analysis of the deposited data

Results flagged for a closer look

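Over 19 probe sets in 6 groups of 5 mice, 14 of 114 groups (12.3%) held a mouse whose distance to its nearest neighbour took up most of the group's range (above 0.71 of it). For independent, normally distributed values chance gives about 1 in 20. These signals are on a linear scale, probe sets of one gene share mice, and every flagged mouse was the highest of its group. The share over all kept probe sets was not computed, so the 12.3% cannot be read as an excess. Several fell in the same mouse. In NOD replicate 3 at 4 weeks, the library that stood apart, Alas2 was 1677 (476 to 766 in the other mice of its group) and the dimmest Ppox probe set was 97.6 (22.7 to 38.6). In C57 replicate 3 at 4 weeks, Alas2 was 1856 (191 to 589). In NON replicate 5 at 2 weeks, Cpox was 929 by its leading probe set (174 to 307) and 887 by another (130.5 to 327). In NOD replicate 3 at 2 weeks, Tmem14c was 259 (116 to 152) and the second Urod probe set 554.5 (277 to 357). In C57 replicate 4 at 4 weeks, Alad was 411 (129 to 204) and Cpox 145 (84.3 to 101). Alas1 was 369 in NON replicate 4 at 4 weeks (275 to 292), and its dim probe set was 93.2 in C57 replicate 2 at 2 weeks (41.2 to 49.4). The second Uros probe set was 402.5 in NOD replicate 1 (253.5 to 292) and 458 in C57 replicate 2 (149 to 212), both at 4 weeks. Another Ppox probe set was 160 in C57 replicate 1 at 2 weeks (18 to 57.9).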

How the results depend on the processing

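Of the 9 genes, 2 passed the strain test at 2 weeks and 2 or 3 under each alternative tried. At 4 weeks the count was 2, and 1 with a pseudocount of 1, with each array scaled to the same median, with the Gapdh 3′/5′ ratio or the erythroid score as a covariate, and with the methods' own test without moderation; without single mice it was 1 to 2. Tmem14c passed under all of them, with NOD differences of -3.19 to -2.79 at 2 weeks and -2.95 to -2.55 at 4 weeks. The age count of 0 became 1 with a pseudocount of 50, with a filter at 100 and with the methods' own test, and was 0 to 2 without single mice. The NON minus C57 count at 2 weeks, added after the data were seen, was 2 and became 1 with a pseudocount of 1, no filter, quantile normalization, the same median, the Gapdh ratio, the erythroid score or the methods' own test, and 1 to 3 without single mice. Slopes on the erythroid score passed for 5 or 6 genes, and 4 to 6 without single mice. Counts of age calls within strains and of interactions stayed at 0.

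With a replicate block the strain count was 2 at 2 weeks and 1 at 4 weeks, the age count was 1, and the NON minus C57 count at 2 weeks was 1. The replicate numbers were not taken to pair the mice, since deviations of same-numbered mice of one age correlated at -0.0795 to 0.121 rather than above 0.1 in every pair. Their median was 0.0422, against -0.0106 for other numbers, and 14 of 30 mice correlated best with their own number, a hint of pairing from the data and not from the design. Over all probe sets, the strain test called 635 at 2 weeks and 578 at 4 weeks, 472 and 367 with the block, and 993 and 960 in a fit of all 30 mice.

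Signs turned for differences that did not pass. With the erythroid score held, NON minus C57 was -0.30 for Alas2 and -0.61 for Ppox at 2 weeks, and -0.0314 for Uros, -0.32 for Urod and -0.0413 for Cpox at 4 weeks. With the Gapdh ratio the slope of Alas1 was 0.0012. Without single mice, the slope of Alas1 ranged from -0.10 to 0.0312, the mean age change of Fech from -0.0351 to 0.15 and of Alas2 from -0.28 to 0.0297, and NON minus C57 of Ppox at 2 weeks from -0.12 to 0.35. The cause of these shifts was not tested.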

Other observations

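The 2 mice of 4 weeks with a high Alas2 were set beside the other 4 mice of their groups after their values were seen. In NOD replicate 3, Fech (2759) was above the others as well, and so was Alas1 (373), whereas Alad (220) and Cpox (188) were below them. Of the 16 erythroid genes in that mouse, 1 was above the range of the others, 9 were below and 6 within. The one above was Trim10 (423), and those below included the erythroid transcription factors Klf1 (404, against 524 to 1394) and Gata1 (88.8, against 210 to 482). In C57 replicate 3, Fech (1312) and Ppox (192) were above the others and Uros (422) below. Trim10 (466, against 114 to 297) was again the erythroid gene above the range, Klf1 (155, against 179 to 651) was below, and the other 14 were within.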
